A study of Mus musculus with 8 samples.

Results

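The comparison described here is between the 2 kinds of control chondrocytes in a mouse study of Idh1: Idh1 fl/+ cells, which carry a floxed Idh1 allele and no Cre, and Col2a1Cre cells, which carry the Cre transgene and no floxed allele. The libraries were chosen by their genotype labels alone and make up 5 of the 8 libraries of the series (2 Idh1 fl/+ and 3 Col2a1Cre). All genes were considered: 16432 genes were listed, 14870 of them had at least 10 normalized counts in at least 2 of the 5 libraries and were tested, and 1562 did not reach that level. All cells were chondrocytes of the sternum, or breastbone, freed by enzyme digestion from C57BL/6 mouse embryos at embryonic day 18.5, and their mRNA was sequenced in bulk. The third group, Col2a1Cre;Idh1 fl/+, is the study's model of chondrocytes with mutant Idh1, and its 3 libraries appear below as values set beside the controls and in 1 alternative fit over all 8 libraries. The unit throughout is the authors' normalized count, a read count divided by 1 factor per library.

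Neither control group is free of engineered DNA. The Idh1 fl/+ cells differ from the Col2a1Cre cells by the floxed allele and by the lack of the transgene at once, so the effects of the allele and of the transgene cannot be told apart in this comparison, and a group with neither was not analysed here. The floxed genotype is fl/+ in the sample labels and fl/fl in the series text, and the labels were followed here. Cre in Col2a1Cre mice is driven by regulatory DNA of Col2a1, so it is made chiefly in cartilage cells. The labels do not say what the transgene construct holds or where it sits in the genome. Nor do the labels say that each library is a separate embryo or litter, so p-values measure only the spread between the samples, which may be technical in part.

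As background, Idh1 encodes the cytosolic isocitrate dehydrogenase, which turns isocitrate into alpha-ketoglutarate and makes NADPH, and mutant forms of the enzyme make D-2-hydroxyglutarate and are found in human cartilage tumours. Cre recombinase cuts and rejoins DNA at loxP sites, and a floxed allele keeps its original state until Cre acts on it. Chondrocytes of the embryonic sternum secrete type II collagen and aggrecan, divide, and then enlarge into hypertrophic cells before bone forms. The p53 protein is a transcription factor switched on by DNA damage and other stress, and its targets include inhibitors of the cell cycle and genes of cell death.

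Reads assigned to the listed genes came to 37973122 and 44988540 in the Idh1 fl/+ libraries, against 31860422, 40838583 and 36116794 in the Col2a1Cre libraries. Col2a1, which encodes type II collagen, was the most abundant gene in all 5 and took 19.05 ± 0.889% of the reads in Idh1 fl/+ libraries (SD, n = 2) and 18.1 ± 1.89% in Col2a1Cre libraries (SD, n = 3; exact permutation test, two-sided, p = 0.8, where the smallest p this design can give is 0.1). The groups overlapped for Sox9, the master regulator of chondrocytes, which stood at 36146 and 36615 normalized counts in Idh1 fl/+ libraries, against 36571, 36129 and 35473 in Col2a1Cre libraries. No pair of libraries of 1 genotype agreed within counting error (chi-square of 9.73 to 36.6 per degree of freedom), and none was merged. Xist, which is made from the inactive X in female cells, stood at 53.7 and 33.3 in the Idh1 fl/+ libraries, against 40733, 49.4 and 22916 in the Col2a1Cre libraries, and the summed Y-linked genes at 7664 and 8393, against 14.3, 6827 and 9.31. Both Idh1 fl/+ libraries were thus male, while Col2a1Cre replicates 1 and 3 were female and replicate 2 male, so sex is uneven between the groups. On the first principal component (36.2% of the variance) the Idh1 fl/+ libraries lay at -12.0 and -23.2, against 31.7, -9.27 and 12.8 for the Col2a1Cre libraries. On this component alone the male Col2a1Cre library lay nearer to the male Idh1 fl/+ libraries than to the female ones of its own group. On the second (25.0%) the Idh1 fl/+ libraries lay at 13.3 and -26.0, against -8.77, 20.1 and 1.45, so male libraries lay at both ends. The pair with the lowest chi-square, 9.73, was Col2a1Cre replicates 2 and 3, which differ in sex.

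Between the controls 2 of 14870 genes passed the test (limma on log2 of the normalized count plus 1, Benjamini-Hochberg adjusted p under 0.05; 0.0134%), and both were lower in Idh1 fl/+ cells: Esr1 and Gas6. No gene passed in the higher direction. An unadjusted p under 0.05 was found for 1133 genes (7.62%), 592 of them higher (3.98%) and 541 lower (3.64%). edgeR's quasi-likelihood test on the recovered reads called 2 genes as well (0.0134%), both lower, and gave 1114 genes an unadjusted p under 0.05 (7.49%; 3.57% higher and 3.92% lower). DESeq2 on the same reads called 86 of the 11406 genes to which it gave an adjusted p (0.754%), 25 of them higher (0.219%) and 61 lower (0.535%) in Idh1 fl/+ cells. For 3688 genes (24.8%) every Idh1 fl/+ library lay on the same side of every Col2a1Cre library, with 2099 (14.1%) higher and 1589 (10.7%) lower in both Idh1 fl/+ libraries than in all Col2a1Cre libraries. These shares are the background for every count below. Of the 567 places in the gene lists 521 were tested, 16 fell short of the level for testing and 30 were not listed. The lists were chosen with earlier results of these data known, so the background shares are not an unbiased contrast for them. The median log2 fold change over all tested genes was 0.01.

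**Figure D1:**
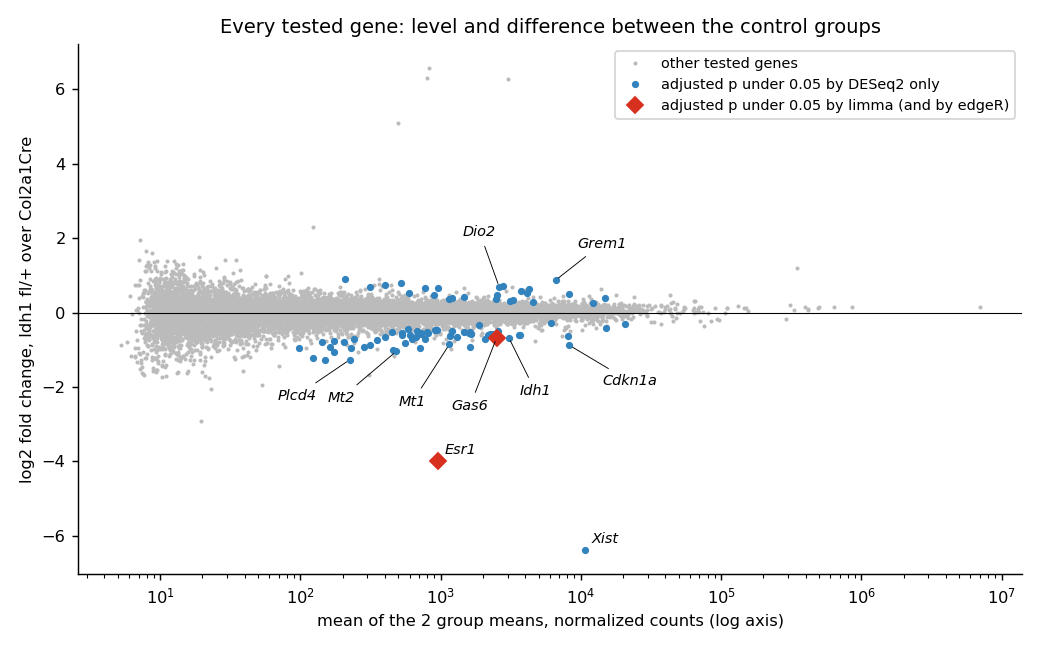
Log2 fold change of each of the 14870 tested genes, Idh1 fl/+ over Col2a1Cre (vertical axis), against its mean level in normalized counts (horizontal log axis). Red diamonds mark the genes with an adjusted p under 0.05 by limma, Esr1 at -4.00 and Gas6 at -0.69; blue dots mark those called by DESeq2 only, such as Idh1, Cdkn1a, Mt1 and Xist.

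Esr1, the gene of estrogen receptor alpha, fell far more than Gas6. It stood at 117 and 105 normalized counts in the Idh1 fl/+ libraries, against 1860.4, 1922 and 1599 in the Col2a1Cre libraries. The groups lay far apart, and the mean in Idh1 fl/+ cells was 6.20% of that in Col2a1Cre cells (log2 fold change -4.00 ± 0.11, SE; limma adjusted p = 4.28e-06; edgeR adjusted p = 1.71e-05). The 3 Col2a1Cre;Idh1 fl/+ libraries, which were not in the fit, held 2529, 2128 and 2209, so Esr1 RNA was high in all 6 libraries labelled as carrying Col2a1Cre and low in both without it. Its call held under all 16 alternative analyses, with log2 fold changes of -4.10 to -3.92. The counts sum every read assigned to Esr1, and whether any came from transgene RNA that holds part of its sequence was not tested.

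Gas6, a secreted ligand of the TAM receptor kinases, stood at 1909 and 1922 normalized counts in Idh1 fl/+ libraries, against 3038, 3046 and 3174 in Col2a1Cre libraries. Replicates lay close together in both groups and the groups did not overlap (log2 fold change -0.69 ± 0.06, SE; adjusted p = 0.0239; edgeR adjusted p = 0.0228). In the 3 Col2a1Cre;Idh1 fl/+ libraries Gas6 ran from 1964 to 2698, between the controls, so its level did not follow the transgene label. The call for Gas6 was lost with embryo sex as a covariate (adjusted p = 0.641), without Idh1 fl/+ replicate 2 (0.330), without Col2a1Cre replicate 3 (0.393) and with all 8 libraries in 1 fit (0.318). Over the 16 alternatives the log2 fold change ran from -0.75 to -0.67. Some of these, such as other filters, robust limma and the fit over all 8 libraries, cannot change it. Because both Idh1 fl/+ libraries were male, the fit with the sex covariate, here and below, compares them with the male Col2a1Cre replicate 2 alone.

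Idh1 itself, the gene with the floxed allele, stood at 2263 and 2452 normalized counts in Idh1 fl/+ libraries, against 3624, 3647 and 3991 in Col2a1Cre libraries. The groups did not overlap, and the mean in Idh1 fl/+ cells was 62.8% of that in Col2a1Cre cells (2357 ± 133, SD, n = 2, against 3754 ± 205, SD, n = 3). The log2 fold change of -0.67 ± 0.07 (SE) did not pass (limma adjusted p = 0.0726). It passed under 4 of the 16 alternatives: by DESeq2 (1.34e-10), by robust limma (0.0389), with libraries scaled by total reads only (0.0268) and without Idh1 fl/+ replicate 1 (0.0430). With embryo sex as a covariate the log2 fold change was -0.63. In the Col2a1Cre;Idh1 fl/+ libraries, which carry the floxed allele together with Cre, Idh1 held 3549, 3948 and 3465, all above both Idh1 fl/+ libraries and 1 of them within the Col2a1Cre range. The counts sum both alleles, so the floxed allele's own RNA was not measured.

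The genes around Idh1 did not share its difference. Among the 10 tested genes on each side of it in the reference order, 3 lay higher and 1 lower without overlap, none passed, and their median log2 fold change was 0.03. The lowest unadjusted p belonged to 2810408I11Rik (0.80, adjusted p = 0.584) and Bard1, a partner of Brca1 (0.31, adjusted p = 0.632). Of 841 tested genes on chromosome 1, that of Idh1, 14.5% lay higher and 10.1% lower without overlap, close to the shares over all genes. DESeq2 called 10 of these 841 and 86 of all 14870 tested genes, counting those to which it gave no adjusted p. Chromosome 8 had 9 of 761 and chromosome 9 had 8 of 812, while chromosome 11 had 2 of 1199. Around Col2a1, whose regulatory DNA drives the transgene, 2 of 20 neighbours lay higher and 4 lower without overlap (median -0.07), with the amino acid transporter Slc38a4 at 0.21 and the exchange factor Rapgef3 at -0.43, and none passed.

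Other enzymes of isocitrate and the tricarboxylic acid cycle did not go with Idh1. Of 23 tested members of this list, Idh1 included, 5 lay higher and 1 lower without overlap, and the median log2 fold change was 0.02. The mitochondrial isocitrate dehydrogenase gene Idh2 held 2813 and 2948 normalized counts in Idh1 fl/+ libraries, against 2292, 2614 and 2707 in Col2a1Cre libraries (log2 fold change 0.19, adjusted p = 0.670). Suclg2, a subunit of succinyl-CoA ligase, differed by 0.21 and Aco1, the cytosolic aconitase that also acts as an iron sensor, by 0.14, and neither passed. Among 29 dioxygenases that use alpha-ketoglutarate, such as the Tet enzymes and histone demethylases, 2 lay higher and 2 lower without overlap (median 0.02), shares below the background. Genes of NADPH supply and NRF2 response had 2 of 13 higher and 3 lower (median -0.03), with Gclc and Srxn1, both of antioxidant defence, at -0.29 and -0.30.

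**Figure D2:**
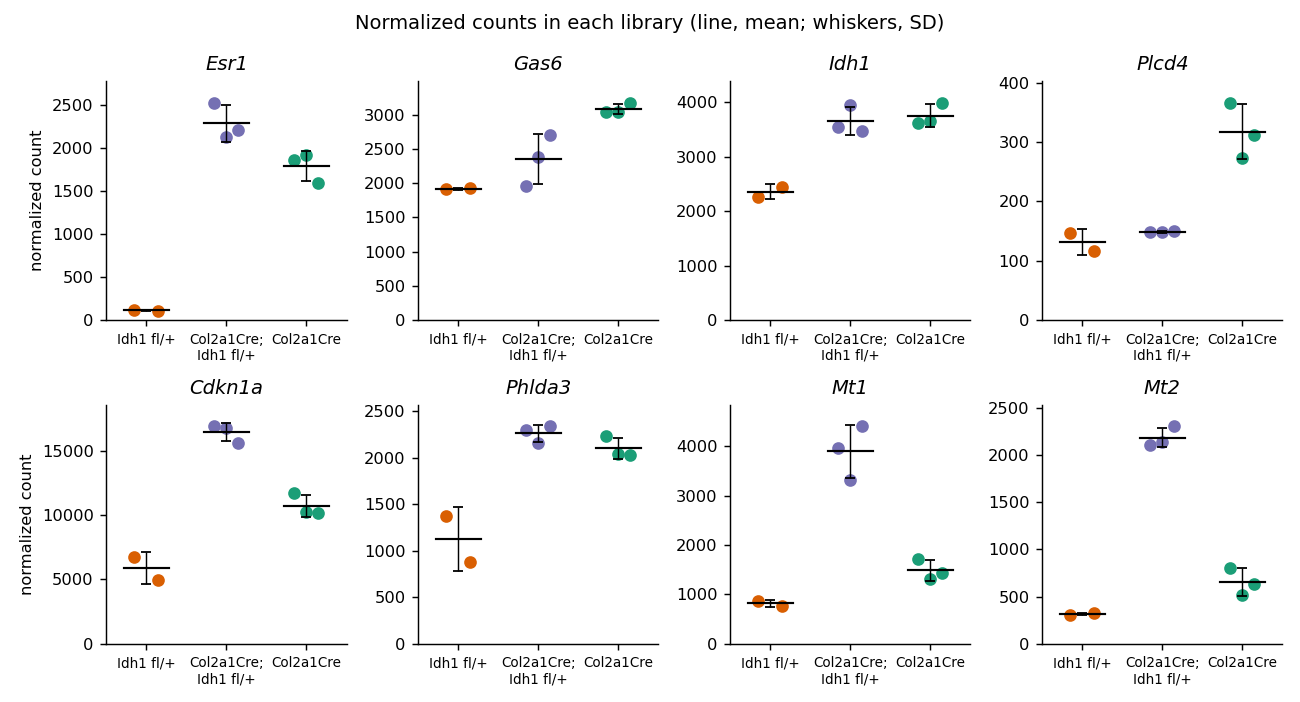
Normalized counts (vertical axes, from 0) of 8 genes in each library of Idh1 fl/+ (n = 2), Col2a1Cre;Idh1 fl/+ (n = 3) and Col2a1Cre cells (n = 3); lines are means and whiskers SD. Esr1 stood at 117 and 105 in Idh1 fl/+ libraries against 1599 to 1922 in Col2a1Cre libraries, and Idh1, Cdkn1a, Phlda3, Mt1 and Mt2 were also lower in both Idh1 fl/+ libraries than in any Col2a1Cre library.

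Beyond the genes that passed, the genes with the lowest unadjusted p in each direction give the next layer; none of them passed by limma. On the lower side stood Gpnmb, a membrane glycoprotein gene, with 6684 and 5970 normalized counts in Idh1 fl/+ libraries, against 9366, 10184 and 9961 in Col2a1Cre libraries (-0.64, adjusted p = 0.101). Plcd4, a phospholipase C, held 146 and 116, against 366, 274 and 313 (-1.27, adjusted p = 0.181). In the Col2a1Cre;Idh1 fl/+ libraries Plcd4 held 148, 148 and 149.8, close to the Idh1 fl/+ cells. Plcd4 was thus low in all 5 libraries with the floxed allele and high in the 3 without it, and this feature was chosen after its values were seen. The adenylate kinase gene Ak1 (-0.70), the scramblase gene Ano6 (-0.60), Ggta1 (-1.07), which makes the alpha-gal sugar, C77080 (-0.65) and Zfp365 (-0.53) lay lower with adjusted p of 0.181 to 0.189, as did Mt1 and Cdkn1a described below.

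On the higher side the smallest p belonged to AI118078, with 245 and 299.8 normalized counts in Idh1 fl/+ libraries, against 133 to 153 in Col2a1Cre libraries (0.90, adjusted p = 0.261). Grem1, a secreted antagonist of bone morphogenetic proteins, held 6624 and 10583, against 4198, 4787 and 4795 (0.87, adjusted p = 0.394). Dio2, the deiodinase that activates thyroid hormone, held 2744 and 3732, against 2046, 1832 and 2073 (0.69, adjusted p = 0.333). For both genes the Idh1 fl/+ libraries lay above every Col2a1Cre library but apart from each other. Dio2 stood at 476 to 601 in the Col2a1Cre;Idh1 fl/+ libraries, below both controls. Aspn, the small matrix proteoglycan asporin, differed by 0.67, Acpl2 by 0.42, Cd24a, a surface glycoprotein gene, by 0.40, Cdkn2c, an inhibitor of cyclin-dependent kinases 4 and 6, by 0.38, Asb4 by 0.34, Stim1, a calcium sensor of the endoplasmic reticulum, by 0.32, Sspn by 0.31 and Yipf4 by 0.29, all with an adjusted p of 0.333 or 0.394 by limma. Of the genes that DESeq2 called, 25 lay higher and 60 lower without overlap, and the 1 that overlapped was Xist.

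The p53 targets lay mostly on the lower side in Idh1 fl/+ cells. Of 24 tested members, 21 lay lower in both Idh1 fl/+ libraries than in all Col2a1Cre libraries, against a background of 10.7%, and 2 lay higher, against 14.1%. None passed by limma or edgeR, while DESeq2 called 8 lower and 0 higher. The median log2 fold change of the list was -0.47, against 0.01 for all genes. As with the other lists, its genes were chosen with earlier results of these data known. The targets of 1 factor vary together from library to library, so 21 genes are not 21 independent observations: Idh1 fl/+ replicate 2 lay below replicate 1 for 19 of the 24, against 48.5% of all genes, and Col2a1Cre replicate 1 was the highest of its group for 15.

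Cdkn1a, the cell cycle inhibitor p21 and the best known p53 target, stood at 6755 and 4971 normalized counts in Idh1 fl/+ libraries, against 11696, 10205 and 10175 in Col2a1Cre libraries. Its groups lay well apart (54.8% of the Col2a1Cre mean; log2 fold change -0.88 ± 0.13, SE; limma adjusted p = 0.189; DESeq2 adjusted p = 7.93e-07). The Col2a1Cre;Idh1 fl/+ libraries held 15609 to 16869. Phlda3, which restrains Akt signalling, held 1371 and 883 in Idh1 fl/+ libraries, against 2236, 2045 and 2028 in Col2a1Cre libraries (-0.93, adjusted p = 0.308). Idh1 fl/+ replicate 1 lay between replicate 2 and the Col2a1Cre libraries for both genes. Aen, an exonuclease of the apoptotic response, held 1360 and 1274, against 2040, 1751 and 1907 (-0.53, adjusted p = 0.225), and Gdf15, a secreted stress signal, held 749.8 and 778, against 968, 1091 and 1093 (-0.46, adjusted p = 0.333). Eda2r (-1.17), the pro-apoptotic Pmaip1 (-0.95) and Perp (-1.02) had the lowest fold changes together with Phlda3 and Cdkn1a. Bax and Bbc3, which open mitochondria to cell death, stood at -0.33 and -0.37, and Mdm2, which degrades p53, at -0.30.

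The members outside this direction were Rrm2b, a ribonucleotide reductase subunit (0.26), Sesn1 (0.17), and Ddit4 (0.05), which overlapped between the groups; they are named because they are the exceptions. Within the male libraries, a comparison added after the data were seen in which Col2a1Cre is represented by replicate 2 alone, 22 of the 24 targets lay lower in both Idh1 fl/+ libraries, against 32.6% of all genes, with a median difference of -0.39 on the log2 scale. The 21 targets that lay below all Col2a1Cre libraries were bound to lie below replicate 2 too, so this count is not a separate check. The median of the list stayed between -0.55 and -0.32 in all 17 alternatives. Some of these, such as robust limma and the fit over all 8 libraries, cannot change a fold change.

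**Figure D3:**
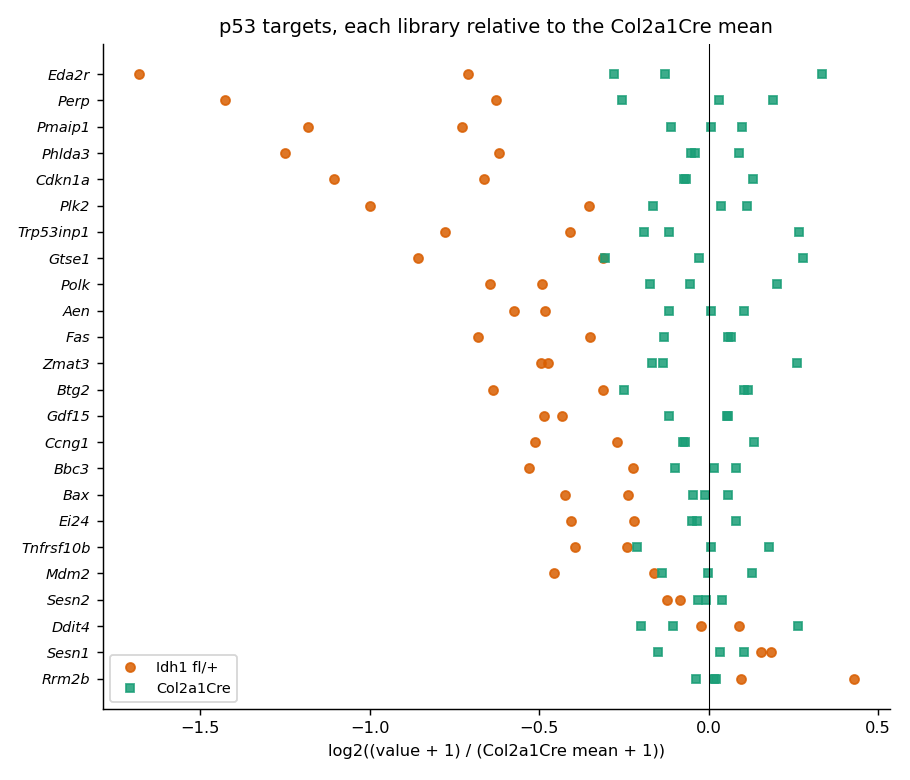
Each of the 24 p53 targets in each library, as the log2 ratio of its value to the Col2a1Cre mean (horizontal axis); circles are Idh1 fl/+ libraries (n = 2) and squares Col2a1Cre libraries (n = 3). For 21 genes both circles lie left of all squares, and Rrm2b and Sesn1 lie to the right.

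The sequence that p53 recognizes is present in the promoters of 3 of the targets, and they are shown because this element is how p53 acts on a gene. Promoters (250 bases before to 50 after each start) were available for 18 of the 24 members in the RefSeq table, build GRCm38.p6. A 20-base p53 response element with no spacer and at most 1 mismatch was found in Cdkn1a, Ccng1 and Gtse1. The elements are printed 5′ to 3′ on the strand of the gene, and the capitals mark the cores on either side of its centre. Cdkn1a is at chr17:29090928-29090947 (+), Ccng1 at chr11:40755462-40755481 (-) and Gtse1 at chr15:85859945-85859964 (+).
Cdkn1a: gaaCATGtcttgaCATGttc
Ccng1: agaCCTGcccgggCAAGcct
Gtse1: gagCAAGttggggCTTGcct
Ccng1, cyclin G1, stood at 7211 and 6092 normalized counts in Idh1 fl/+ libraries, against 9539, 8258 and 8292 in Col2a1Cre libraries (-0.39, adjusted p = 0.430). Gtse1, a microtubule-associated protein that also binds p53, held 951 and 651, against 1156, 954 and 1431 (-0.56, adjusted p = 0.558), where Idh1 fl/+ replicate 1 was only just below the lowest Col2a1Cre library. Over all 27025 genes with a promoter in the table, 22 held such an element (0.0814%), and 7 of these were tested. Of the 7, 4 lay lower and 0 higher without overlap, where 10.7% and 14.1% of all genes did. The 4 include Cdkn1a, Ccng1 and Gtse1, so this count is not independent of the p53 list. A match describes the letters of the promoter and not binding, and p53 elements outside these windows were not searched.

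Metallothioneins, small proteins that bind zinc and copper, were lower as well. Mt1 stood at 872 and 763 normalized counts in Idh1 fl/+ libraries, against 1719, 1314 and 1429 in Col2a1Cre libraries (-0.86 ± 0.12, SE; adjusted p = 0.189). Mt2 held 304 and 322, against 806, 519 and 637 (-1.04 ± 0.17, SE; adjusted p = 0.249). Neither gene overlapped between the groups, and Col2a1Cre replicate 1 was the highest control for both. In the Col2a1Cre;Idh1 fl/+ libraries both stood above all controls, Mt1 at 3325 to 4402 and Mt2 at 2112 to 2304. DESeq2 called both lower (adjusted p = 1.91e-06 for Mt1 and 3.52e-05 for Mt2). With embryo sex as a covariate the log2 fold changes were -0.69 for Mt1 and -0.73 for Mt2.

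Both metallothionein promoters hold several metal response elements, the sites of the zinc sensor MTF1, and they are shown because these genes stood together. The windows run from 250 bases before to 28 bases after the annotated start (RefSeq, GRCm38.p6), Mt1 at chr8:94178839-94179116 (+) and Mt2 at chr8:94172368-94172645 (+). Capitals mark the element core TGCACNC or TGCGCNC on either strand.
Mt1: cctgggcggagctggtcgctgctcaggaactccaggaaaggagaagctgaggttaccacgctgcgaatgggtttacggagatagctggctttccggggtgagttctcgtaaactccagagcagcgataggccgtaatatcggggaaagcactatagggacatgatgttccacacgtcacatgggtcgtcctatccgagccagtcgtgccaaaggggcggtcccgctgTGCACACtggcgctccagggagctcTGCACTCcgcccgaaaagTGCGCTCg
Mt2: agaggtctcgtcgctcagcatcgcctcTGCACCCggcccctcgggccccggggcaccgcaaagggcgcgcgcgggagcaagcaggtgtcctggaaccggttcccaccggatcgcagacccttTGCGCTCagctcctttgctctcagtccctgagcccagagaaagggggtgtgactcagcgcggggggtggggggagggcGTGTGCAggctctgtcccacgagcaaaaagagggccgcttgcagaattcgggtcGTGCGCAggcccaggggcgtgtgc
The Mt1 window holds 3 cores and the Mt2 window 4. At least 1 core was found in 28.2% of the 27025 promoters and at least 3 in 2.27%. Of the 405 tested genes with at least 3 cores, 35 lay lower and 52 higher without overlap, both shares below the 10.7% and 14.1% of all genes. Their median log2 fold change was 0.01, as over all genes, so genes with such promoters were not lower as a set. Among the 11 tested metallothionein and iron genes, 5 lay lower and 2 higher without overlap (median -0.25). The ferritin subunit genes Fth1, at 19672 and 16847 in Idh1 fl/+ libraries against 21382 to 23492 in Col2a1Cre libraries, and Ftl1 stood at -0.29 and -0.25, and neither passed.

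Immediate early genes, which respond within minutes to growth factors and to tissue digestion, lay on the same side in sign but mostly with overlap. Of 21 members 20 had a negative fold change, and the median was -0.19. Without overlap 3 lay lower and 0 higher, against 10.7% and 14.1% of all genes. Fosl1, an AP-1 subunit, held 231 and 162 normalized counts in Idh1 fl/+ libraries, against 453, 313 and 352 in Col2a1Cre libraries (-0.92, adjusted p = 0.394). Klf4 (-0.25) and Ier5 (-0.29) also did not overlap, while Egr2 (-0.52) did. Idh1 fl/+ replicate 2 lay below replicate 1 for 17 of the 21. Col2a1Cre replicate 2 was the highest of its group for 12. Within the male libraries that replicate is the only Col2a1Cre library. There 20 of the 21 lay lower and 0 higher, against 32.6% and 35.2% of all genes. The 3 genes that lay below all Col2a1Cre libraries were bound to be among these.

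Cholesterol synthesis stood slightly higher in Idh1 fl/+ cells throughout the pathway. All 21 tested enzymes had a positive fold change, 13 lay higher and 0 lower without overlap, against the background of 14.1% and 10.7%, and the median log2 fold change was 0.15. None passed by limma, and DESeq2 called 1. Sc5d, the sterol desaturase of the last steps, stood at 2730 and 2918 normalized counts in Idh1 fl/+ libraries, against 2128, 2188 and 2211 in Col2a1Cre libraries (0.38 ± 0.06, SE; adjusted p = 0.308). Hmgcs1, which makes the precursor of mevalonate, held 10856 and 12137, against 9353, 9143 and 9907 (0.28, adjusted p = 0.475). Dhcr7, which makes the last reduction to cholesterol, held 3483 and 3495, against 2832, 3000.3 and 3151 (0.22, adjusted p = 0.521), and Hsd17b7 stood at 0.22. The differences are small beside those of the p53 targets, but the groups stayed apart for most members. Col2a1Cre replicate 1 was the lowest of its group for 14 of the 21 and replicate 3 the highest for 15. Within the Idh1 fl/+ group replicate 2 lay below replicate 1 for 1 of the 21 (4.76%), against 48.5% of all genes, so these genes too varied together between libraries. Within the male libraries, again with 1 Col2a1Cre library, 20 of 21 lay higher, against 35.2% of all genes. The 13 that lay above all Col2a1Cre libraries were bound to be among these.

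Fatty acid synthesis went the same way in part: 8 of 17 members lay higher and 0 lower without overlap, against 14.1% and 10.7% of all genes. The median was 0.14. Scd1 and Scd2, the stearoyl-CoA desaturases, stood at 0.29 and 0.30, and the desaturases Fads1 and Fads2 at 0.21 and 0.22, with adjusted p of 0.521 to 0.571. Scd2 held 67929 and 76604 normalized counts in Idh1 fl/+ libraries, against 55170, 61542 and 59501 in Col2a1Cre libraries. Genes of sterol uptake and its control were mixed, with 5 of 20 higher and 1 lower (median 0.01). Among these Stard4, a cholesterol carrier, stood at 0.19.

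Most cell cycle genes stood slightly higher in Idh1 fl/+ cells. Of 26 tested members 15 lay higher and 0 lower without overlap, against 14.1% and 10.7% of all genes. A positive fold change was found for 22, and the median was 0.18. None passed by limma or DESeq2. Aurkb, a kinase of chromosome segregation, stood at 761.6 and 761.7 normalized counts in Idh1 fl/+ libraries, against 564, 624 and 634 in Col2a1Cre libraries (0.33, adjusted p = 0.469). Ccna2, cyclin A2, held 2617 and 2630.3, against 1959, 2151 and 2310 (0.30, adjusted p = 0.475). Top2a, a topoisomerase of dividing cells, stood at 0.25 and the spindle motor Kif11 at 0.23. The replication genes Mcm2, Mcm3, Mcm5 and Pcna, named after their values were seen, overlapped between the groups, with log2 fold changes of -0.04 to 0.03. Within the male libraries Col2a1Cre replicate 2 is the only Col2a1Cre library. There 20 of the 26 genes lay higher in both Idh1 fl/+ libraries, against 35.2% of all genes. The 15 that lay above all Col2a1Cre libraries were bound to be among these.

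**Figure D4:**
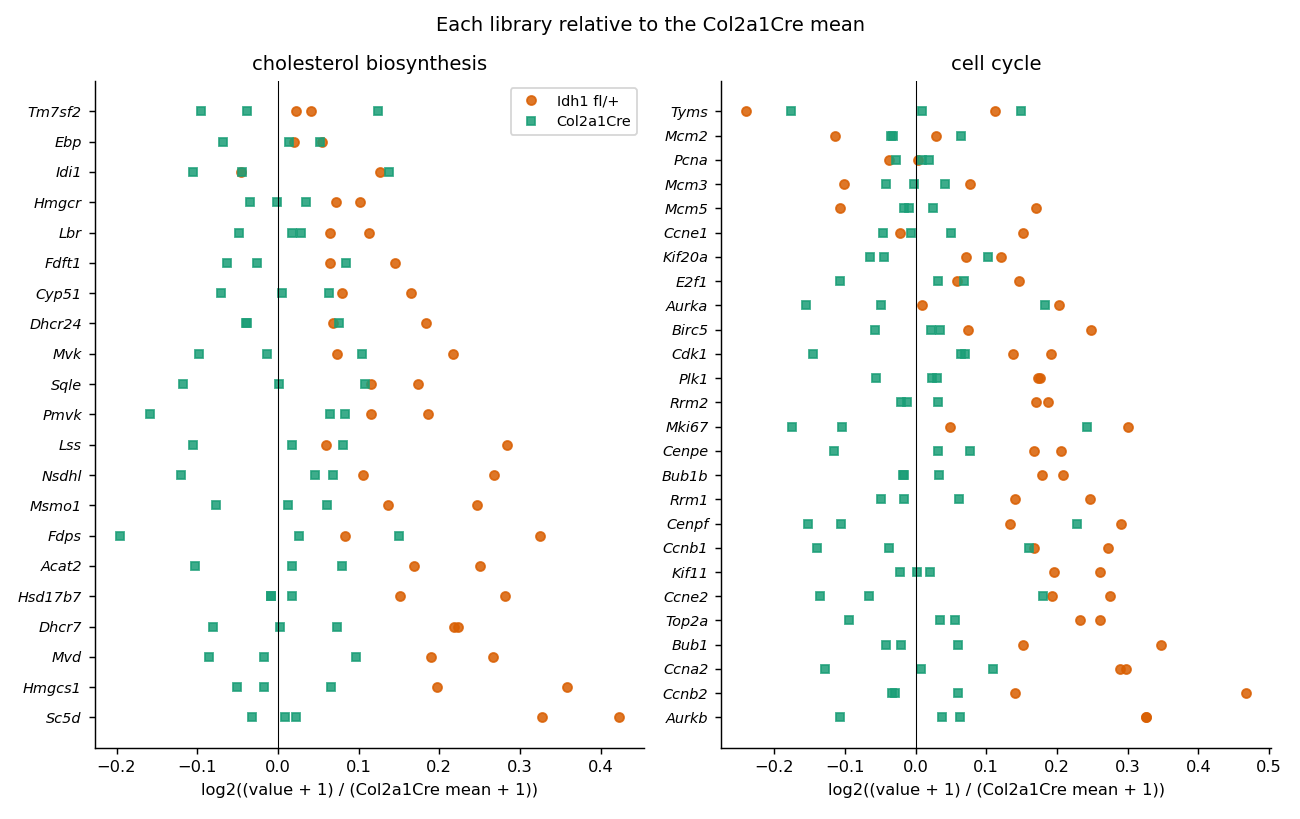
Genes of cholesterol biosynthesis (left, 21 genes) and of the cell cycle (right, 26 genes) in each library, as the log2 ratio to the Col2a1Cre mean (horizontal axes); circles are Idh1 fl/+ libraries (n = 2) and squares Col2a1Cre libraries (n = 3). Both circles lie right of all squares for 13 and 15 genes.

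Cartilage genes were close between the controls. Of 24 genes of chondrocyte identity and matrix 3 lay higher and 0 lower without overlap, a share of higher genes close to the background, and the median was 0.12. Sox6, a partner of Sox9, held 8984 and 10998 normalized counts in Idh1 fl/+ libraries, against 8801, 8525 and 8887 in Col2a1Cre libraries (0.19, adjusted p = 0.691). Snorc (3110079O15Rik in the files), a cartilage proteoglycan, differed by 0.15, Chad by 0.17 and Matn4 by -0.24. Col2a1Cre replicate 1 was the lowest of its group for 13 of the 24.

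In the hypertrophic list 4 of 16 genes lay higher and 1 lower without overlap, and the median was 0.19. Mef2c, a transcription factor of hypertrophy, held 4452 and 4322 normalized counts in Idh1 fl/+ libraries, against 3758, 3499 and 3589 in Col2a1Cre libraries (0.28, adjusted p = 0.394). Pth1r, the receptor of parathyroid hormone-related protein, stood at 0.34 and the channel gene Panx3 at 0.29. Col10a1, the collagen of hypertrophic cells, held 63854 and 38050, against 36088, 32665 and 39068: replicate 1 alone was high and the groups overlapped (0.46, adjusted p = 0.649). Idh1 fl/+ replicate 2 lay below replicate 1 for 13 of these 16 genes.

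Among signalling lists, those of Wnt and BMP genes held the largest shares of higher genes, with medians of 0.15 and 0.04. The Hedgehog and FGF lists lay nearer to the background of 14.1%, though also above it, and all these lists are small. In the Hedgehog pathway 2 of 13 genes lay higher and 2 lower (median 0.08), with the target Gli1 at 0.25 and Gli3 at -0.14. Among Wnt targets and antagonists 5 of 14 lay higher and 0 lower (median 0.15), with Tnfrsf19 at 0.39 and the secreted inhibitor Frzb at 0.17. In the BMP and TGF-beta list 4 of 16 lay higher and 1 lower (median 0.04). Secreted BMP antagonists were among them: besides Grem1, Nog (noggin) held 2261 and 2759 normalized counts in Idh1 fl/+ libraries, against 1647, 1806 and 2048 in Col2a1Cre libraries (0.45, adjusted p = 0.430). Chrdl1 stood at 0.61 with overlap, and Ltbp2, a binding protein of latent TGF-beta, at -0.46. Of FGF feedback and insulin-like growth factor genes 3 of 16 lay higher and 1 lower (median -0.04), with Igfbp5, which binds these factors, at 0.64 (adjusted p = 0.394) and Etv5 at -0.73 with overlap. None of these genes passed by limma or edgeR, while DESeq2 called Grem1 (adjusted p = 0.000185) and Igfbp5 (adjusted p = 0.0214) higher.

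Stress lists other than p53 gave medians smaller in size than that of the p53 targets. The unfolded protein and integrated stress response had 2 of 20 genes higher and 2 lower (median 0.03), with Ddit3 at -0.34 and Trib3 at 0.25. Heat shock genes had 0 of 12 higher and 1 lower (median -0.05). Of 13 tested genes of interferon response and DNA sensing, out of 20 in the list and 15 listed, 0 lay higher and 4 lower (median -0.18). These were low in both groups: Cxcl10 held 39.1 and 64.9 normalized counts in Idh1 fl/+ libraries, against 75.9, 78.7 and 78.6 in Col2a1Cre libraries (-0.62, adjusted p = 0.623), and Irf9 stood at -0.18. Within the male libraries, with 1 Col2a1Cre library, 7 of these 13 genes lay lower and 0 higher, against 32.6% and 35.2% of all genes. The 4 that lay below all Col2a1Cre libraries were bound to be among these. Mitochondrially encoded genes had 2 of 7 higher and 0 lower (median 0.10), and thoracic Hox genes, which mark position along the body, 4 of 18 higher and 1 lower (median 0.10).

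Glycolysis and hypoxia genes varied more between the Col2a1Cre libraries than between the groups. None of 18 glycolytic genes was free of overlap, and the list median was 0.06. Col2a1Cre replicate 2 was the highest of its group for all 18. Summed over the list, the Idh1 fl/+ libraries held 94304 and 94361 normalized counts, against 75510, 119200 and 84470 in the Col2a1Cre libraries. Within the male libraries, where that replicate is the only Col2a1Cre library, the median was -0.34 for glycolysis and -0.36 for hypoxia targets, against 0.06 and 0.12 with all libraries. Without Col2a1Cre replicate 1 alone the medians were -0.067 and -0.094, and without replicate 2 alone they were 0.24 and 0.28, so the sign turned with the libraries chosen. Of the 18 hypoxia targets 0 lay higher and 2 lower without overlap.

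**Figure D5:**
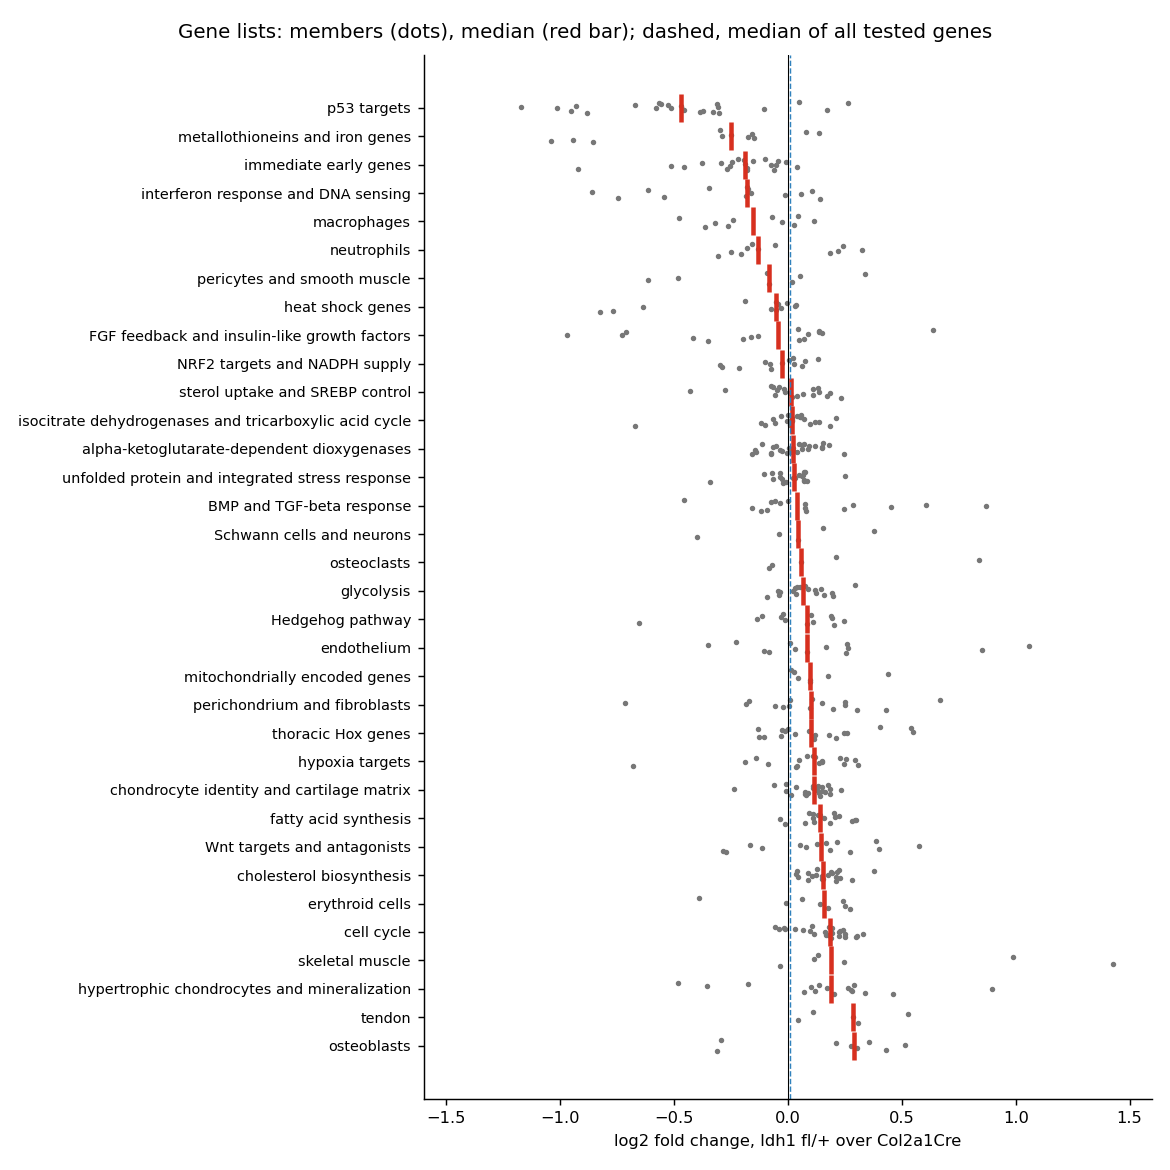
Log2 fold change, Idh1 fl/+ over Col2a1Cre (horizontal axis), of every tested member (dots) of each list with at least 5 tested members, ordered by median (red bars); the dashed line is the median of all tested genes, 0.01. The p53 list has the lowest median, -0.47, and osteoblast and tendon markers the highest, both 0.29, which came to 0.059 for osteoblasts without Idh1 fl/+ replicate 1 and 0.011 for tendon without Col2a1Cre replicate 1.

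Markers of other cells that a sternum could hold varied between libraries within the groups. In bulk RNA fewer cells of a type and less RNA per cell cannot be told apart. Of 8 tested osteoblast markers 2 lay higher and 0 lower without overlap, their median log2 fold change was 0.29 (0.0099 within the male libraries), and their summed level was 104880 and 123320 normalized counts in Idh1 fl/+ libraries, against 66591 to 115390 in Col2a1Cre libraries. Smpd3 led with 14217 and 12244, against 11759, 9044 and 10268 (0.36, adjusted p = 0.545). Perichondrial and fibroblast markers had 3 of 16 higher and 0 lower, with sums of 276060 and 310980, against 224850 to 302020. Prrx1 (0.25) and Aspn (0.67) were among the 3. Tendon markers had 1 of 5 higher and sums of 111880 and 117580, against 92232 to 116930. Col2a1Cre replicate 1 had the lowest sum of the 5 libraries for osteoblasts, fibroblasts and tendon alike.

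Muscle markers were uneven between the Idh1 fl/+ libraries. Of 6 tested members 2 lay higher, and the sums were 2382 and 2057, against 1669 to 1747. Mylpf, a myosin light chain, held 74.2 and 29.8 normalized counts in Idh1 fl/+ libraries, against 12.1, 25.6 and 15.5 in Col2a1Cre libraries. Tnnt3, a troponin, held 1591 and 1811, against 1398 to 1480. Most of each sum was thus Tnnt3, which was higher in Idh1 fl/+ replicate 2, while Mylpf was higher in replicate 1. Myh8, a myosin of developing muscle, and Ckm, muscle creatine kinase, held 129.9 and 56.6 in Idh1 fl/+ replicate 1 alone, were at 0 in replicate 2 and stood at 0 to 5.49 in Col2a1Cre libraries, so both missed the level for testing. Blood and immune markers overlapped almost throughout. Macrophage markers had 0 of 10 higher and 1 lower, with sums of 4302 and 3275, against 2987 to 5582. Neutrophil markers had 0 of 11 in either direction, with sums of 10624 and 6546, against 6734 to 13729. Erythroid markers had 0 of 8, with sums of 7137 and 11044, against 3100.3 to 17173. Osteoclast markers had 0 of 5, with sums of 4058 and 3589, against 3266 to 4872.

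The remaining marker lists were small or low. Endothelium had 1 of 13 higher (median 0.08), pericytes and smooth muscle 2 of 7 lower (median -0.08), and Schwann cells and neurons 0 of 5 (median 0.04). Lymphocyte markers summed to 157 and 268 normalized counts in Idh1 fl/+ libraries, against 226 to 284 in Col2a1Cre libraries, with 1 of 4 tested members lower and Ms4a1 at 0 in all 5. Of 6 keratinocyte markers 2 were tested, and the 1 that lay lower, Perp, is also a p53 target; of 6 adipocyte markers 2 were tested and 1 lay lower. The part of these cells in the differences above was not tested.

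Sex-linked genes outside Xist differed between libraries of 1 genotype. Kdm5d, Uty, Ddx3y and Eif2s3y of the Y chromosome were high in the 3 male libraries of the 2 groups and near 0 in the female ones: Ddx3y held 4488 and 4970 normalized counts in Idh1 fl/+ libraries, against 9.90, 4054 and 4.14 in Col2a1Cre libraries. The X-linked genes Kdm6a, Kdm5c and Ddx3x, which escape X inactivation, stood at -0.55, -0.28 and -0.13, and Eif2s3x at -0.57. On the X chromosome 19.6% of 511 tested genes lay higher and 8.41% lower without overlap, against 14.1% and 10.7% of all genes. With X-linked and Y-linked genes left out, limma still called 2 genes.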

How the data were processed

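RNA sequencing libraries of 2 Idh1 fl/+ and 3 Col2a1Cre samples were compared. The genes of each list, and the lists themselves, were chosen with earlier results of these data known. Per the labels' protocols, RNA was purified on columns and a stranded mRNA kit (KAPA) was used. The tools listed include STAR and HTSeq, besides Trim Galore, cutadapt and DESeq2, per the submitters' processing notes; versions, build and strand setting are not stated there. The signal analysed is the authors' normalized count per gene and library, as deposited; within a library they are multiples of a common step, and dividing by that step gave whole reads for 100% of values (tolerance 0.001 reads).

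Genes with at least 10 normalized counts in at least 2 of the 5 libraries entered limma 3.58.1 (trended empirical Bayes, R 4.3.3) on log2 of the normalized count plus 1, with Benjamini-Hochberg adjustment over all 14870 genes and a threshold of 0.05. Fold changes on this scale understate the change of low genes. Alternatives used edgeR 4.0.16 and DESeq2 1.42.0 on the recovered reads, other pseudocounts, filters and scalings, all 8 libraries in 1 fit, embryo sex as a covariate, and each library left out in turn; the comparison within male libraries was added after the data were seen. The scripts were tested on simulated data. The rule for named genes takes Idh1 and Col2a1, 12 genes in each direction without overlap and with a mean of at least 50 in the higher group (called genes first, then the lowest unadjusted p), and up to 4 members per list by lowest p; a few others, named as exceptions or list examples, were chosen after their values were seen. Counts do not correct for gene length, so levels are compared between libraries and not between genes. Depth and replicate number limit precision.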

Additional observations from a re-analysis of the deposited data

How the results depend on the processing

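Esr1 was called under all 16 alternatives, and Gas6 under 12. The number of genes called was 86 by DESeq2 (25 higher, 61 lower), 1 (1 lower) with all 8 libraries in 1 fit and 1 (1 lower) with embryo sex as a covariate. Without 1 replicate it ran from 1 to 92 (higher 0 to 20, lower 1 to 72), with 92 genes without Idh1 fl/+ replicate 1, 8 without Col2a1Cre replicate 2, and 1 without either Idh1 fl/+ replicate 2 or Col2a1Cre replicate 3. The log2 fold change of Idh1 passed at -0.73 with scaling by total reads only, at -0.68 by DESeq2 and at -0.67 both with robust limma and with an adjusted p under 0.1, and it ran from -0.73 to -0.61 without 1 replicate. The count of genes whose groups did not overlap ran from 5412 to 8470 without 1 replicate, since fewer libraries overlap less. The difference in the share of reads from Col2a1 ran from -0.136 to 1.58 percentage points, and it was negative without Col2a1Cre replicate 1. With embryo sex as a covariate Kdm6a (0.072), Kdm5c (0.026) and Ddx3x (0.094) turned positive. In that fit the Idh1 fl/+ libraries are set against the male Col2a1Cre replicate 2 alone. All 3 genes were lower in that library than in the female Col2a1Cre replicates 1 and 3, such as Kdm6a at 1480 normalized counts against 2939 and 2704. Ddit4 turned to -0.016 with scaling by total reads only and -0.23 with the sex covariate, and ran from -0.046 to 0.19 without 1 replicate. The cause of the reversals of Ddit4 was not tested. Over all alternatives, named genes kept direction and stayed called or stayed uncalled in 1556 cases. They gained a call in 46, lost it in 4 and reversed in 7. Of these genes only Esr1 and Gas6 were called in the main fit. Most of the 1556 cases are thus genes that stayed uncalled, and all 4 losses were of Gas6. List medians moved by less than the spread in 603 cases and by more in 94. No paired analysis was possible because replicate numbers follow the order of the records and pair no samples.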
